A study of Mus musculus with 4 samples.

Results

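The genes of the interleukin-10 axis described here are Il10, its receptor chains Il10ra and Il10rb, and 4 genes that interleukin-10 is known to raise in macrophages: Sbno2, Etv3, Nfil3 and Il4ra. They were taken by symbol, each matched exactly 1 Ensembl gene, and they are 7 of the 55536 annotated genes in the deposited tables, of which 16262 had enough counts to be tested. Cytosolic RNA of cultured C57BL/6J mouse macrophages, grown from bone marrow, was cleared of ribosomal RNA and sequenced as total RNA in 4 libraries, all of 1 group. Before harvest the cells had spent 12 h in lipid A (the part of lipopolysaccharide that Toll-like receptor 4 binds) at 100 ng/ml, then 12 h after its washout, and lastly 15 min in lipid A at 100 ng/ml. Sex and age were not collected, no genetic change was named, and 1 donor record stood for all 4 biological replicates. Whether the cultures or animals were separate is not stated, so p-values speak only to how far these 4 samples spread, and that spread may be technical. No group without lipid A was used here, so no level below is a response to lipid A.

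Interleukin-10 is a secreted cytokine with which macrophages restrain their own inflammatory output. It binds IL-10RA, which then pairs with IL-10RB, and the kinases JAK1 and TYK2 on these chains activate the transcription factor STAT3. STAT3 acts in large part through genes that it switches on, among them the corepressor SBNO2, the ETS-family repressor ETV3 and the basic leucine zipper factor NFIL3, which represses the interleukin-12 subunit gene Il12b. IL-4RA, the ligand-binding chain for interleukin-4, is another product that interleukin-10 raises in macrophages.

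Levels are TPM, a measure of abundance per transcript length with the same total in every library, so they can be set against each other between genes. Unless stated otherwise they come from the first deposited quantification. Levels rescaled to protein-coding genes alone were higher by factors of 3.17, 4.00, 3.37 and 2.74 in replicates 1 to 4. The total used for this rescaling, here and below, left out the mitochondrially encoded protein-coding genes. Library depth ran from 30660511 expected counts in replicate 1 to 48223718 in replicate 3. All 10 macrophage markers examined lay above 10 TPM, with a summed level of 4154 to 6373 TPM per library. Of the markers of other cells that can make interleukin-10, the T cell genes summed to 8.83 to 18.1 TPM, nearly all of it Cd4 at 15.0 ± 4.40 TPM (SD, n = 4), and Cd3e stood at 0.0625 ± 0.0675 TPM. The B cell list summed to 1.07 to 1.85 TPM, the natural killer cell list to 0 to 0.11 TPM, the mast cell list to 0.03 to 0.13 TPM, and the dendritic cell list to 0.18 to 0.56 TPM. Among the neutrophil genes, S100a8 and S100a9 lay above 1 TPM at 4.54 ± 1.27 and 6.25 ± 1.91 TPM and Ly6g had 1 count in all. In these bulk samples, fewer cells of a type and less RNA per cell cannot be told apart.

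The 7 genes spanned 39.8-fold in mean level, from the shared receptor chain Il10rb at 108 ± 19.6 TPM to the repressor Nfil3 at 2.72 ± 1.23 TPM. All 7 of 7 lay above 1 TPM (limma on log2(TPM + 0.1), one-sided, Benjamini-Hochberg adjusted p below 0.05), beside 58.2% of all genes tested and 71.2% of protein-coding genes tested. Above 10 TPM were 5 of 7, beside 21.7% of all genes tested and 27% of protein-coding genes, namely Il10rb, Il4ra, Etv3, Il10ra and Sbno2. Nfil3 lay below 10 TPM, as did 69.8% of all genes tested and 62.6% of protein-coding genes, and Il10 had neither call. The median of the 7 mean levels was 36.9 TPM, against 2.72 TPM over all genes tested and 4.85 TPM over protein-coding genes tested. The genes had been listed with earlier results known, so these counts describe them and do not set them apart.

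**Figure D1:**
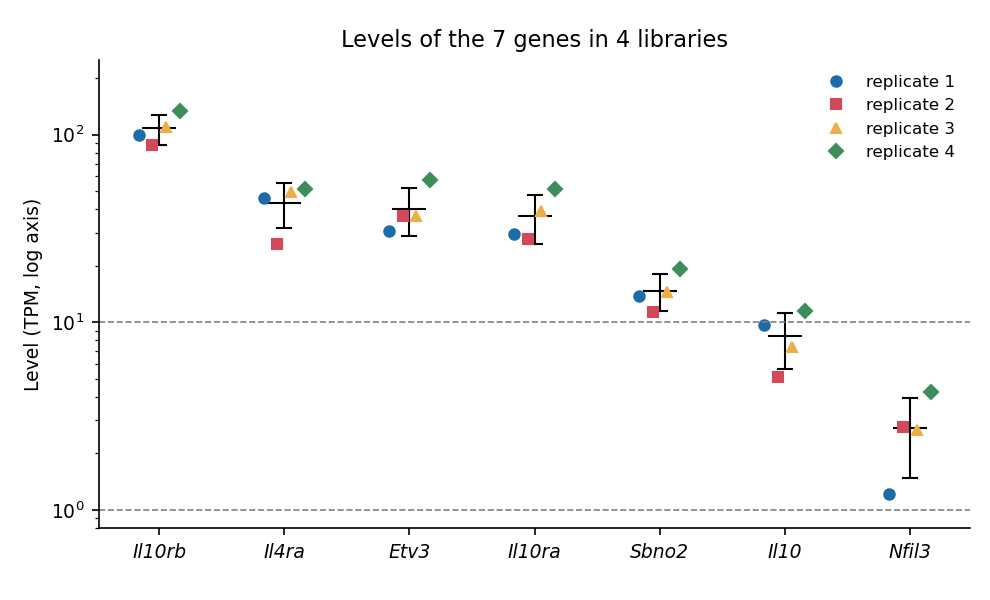
Level of each gene (TPM, log axis) in the 4 libraries, with the mean as a horizontal bar and the SD as error bars, and dashed lines at 1 and 10 TPM. Il10rb is highest and Nfil3 lowest in each library, Il4ra, Etv3 and Il10ra overlap, and the replicate 1 point of Nfil3 (1.21 TPM) sits below its other 3.

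Il10 (chr1:131019845-131024974 on mm10, plus strand), the ligand, was present at a modest level. Its levels in replicates 1 to 4 were 9.69, 5.08, 7.35 and 11.5 TPM, from 535, 391, 630 and 738 expected counts. Only replicate 4 was above 10 TPM, and replicate 2 was lowest. In deposited TPM of the second quantification, Il10 was lowest in replicate 3 at 2.10 TPM, beside 2.14 TPM in replicate 2. The mean in the first quantification was 8.40 ± 2.79 TPM (SD, n = 4). It lay above 1 TPM (limma, adjusted p = 1.08e-07) and was not separated from 10 TPM (adjusted p = 0.0905 for below). Counting alone would give an error of 5.06% at the lowest of these counts, while the coefficient of variation between libraries was 33.2%. Rescaled to protein-coding genes, Il10 stood at 26.8 ± 5.27 TPM, with replicate 2 again lowest at 20.3. On that scale Il10 was called above 10 TPM, as were 7277 of the 16262 genes tested, against 3529 as deposited. Its single annotated transcript carries 6 copies of ATTTA, the core of AU-rich elements that destabilising proteins such as tristetraprolin bind, in a 3′ untranslated region of 706 bases. That is 8.50 per kb, against a median of 1.24 per kb over the leading coding transcripts of 9338 genes. The copies are spread out, with at most 1 in any 30 bases.

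No other cytokine of the interleukin-10 family reached the tested range. Il19, Il20 and Il22 had 1 count each over the 4 libraries together. Il24, Ifnl2 and Ifnl3 had none, which allows levels of up to 0.0960, 0.125 and 0.168 TPM in the library with the highest limit (3 counts, covering counting error only). Il10 was thus the only one of the 7 family ligands examined that had more than 1 count in these libraries.

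The receptor chains were unequal. Il10rb (chr16:91406164-91425834, plus strand), which also serves the interleukin-22 and interferon lambda receptors, stood at 100.1, 88.1, 109.8 and 134 TPM in replicates 1 to 4. Il10ra (chr9:45253837-45269149, minus strand), the chain that gives the receptor its affinity for interleukin-10, stood at 29.5, 27.7, 39.1 and 51.5 TPM. The ranges of the chains did not overlap, and in deposited TPM of the first quantification both were lowest in replicate 2 and highest in replicate 4. In deposited TPM of the second, both were lowest in replicate 3. Rescaled to protein-coding genes, Il10rb stood at 317, 353, 370.2 and 369 TPM and Il10ra at 93.4, 111, 132 and 141 TPM, so that both were lowest in replicate 1. Within a library Il10rb exceeded Il10ra by 1.76, 1.67, 1.49 and 1.38 on the log2 scale, on average 1.58 ± 0.17 or 2.98-fold. In turn the log2 ratio of the ligand to Il10ra was -1.61, -2.45, -2.41 and -2.16, with a mean of -2.16 ± 0.39. Both contrasts had 1 direction in 4 of 4 libraries, and the exact two-sided sign-flip permutation test gave p = 0.125, the smallest that 4 libraries allow, and 0.125 after Benjamini-Hochberg adjustment over 7 contrasts. Both receptor genes lay above 10 TPM (limma, adjusted p = 4.60e-08 for Il10rb and 6.38e-06 for Il10ra).

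Il10rb and Il10ra were each read almost wholly as 1 coding transcript. Il10rb-201 (351 codons) held 97.4% ± 1.15 of the TPM of Il10rb and Il10ra-201 (575 codons) held 96.9% ± 0.218 of the TPM of Il10ra. The gene Gm21970 overlaps Il10rb on its strand and had 4.63 counts in replicate 3 and 0 in the others in the first quantification, and 6.14, 15.7, 9.28 and 0 in the second. Gm20612 and Mir7086 lie within Il10ra and had at most 3 counts in a library in the first quantification and at most 24 in the second. These neighbours held few counts beside those of the receptor genes.

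The class II cytokine receptor chains that do not serve interleukin-10 fell into present and absent groups. Of 9 chains examined, 4 lay above 10 TPM, beside 27% of protein-coding genes tested. Highest were the interferon chains Ifnar2 at 63.0 ± 10.9, Ifngr2 at 38.0 ± 7.87 and Ifngr1 at 31.1 ± 4.70 TPM. Il20rb lay below 1 TPM at 0.465 ± 0.168. Il20ra, Il22ra1 and Il22ra2, partners or relatives in receptors for the other family cytokines, had no count, which allows up to 0.0428, 0.0250 and 0.0258 TPM. Il10rb, at 108 TPM, was thus higher than each of the 9 in mean level. Ifnlr1, the chain that joins IL-10RB in the interferon lambda receptor, had 3 counts in all.

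The signalling chain below the receptor was present. Of 10 genes listed for it, 9 lay above 1 TPM and 6 above 10 TPM, beside 71.2% and 27% of protein-coding genes tested. The phosphatase genes Ptpn6 (SHP-1) and Inpp5d (SHIP1) stood at 132 ± 29.3 and 47.9 ± 7.59 TPM. Stat3, the main transducer of interleukin-10, stood at 28.6 ± 7.77 TPM, Jak1 at 36.1 ± 8.17 and Tyk2 at 24.2 ± 7.82 TPM. Socs3, the feedback inhibitor that STAT3 induces, stood at 11.4 ± 4.58 TPM and had no call against 10 TPM. Socs2 alone lay below 1 TPM, as did 35.1% of all genes tested, at 0.220 ± 0.0356 TPM. These last 5 genes were named after their values were seen.

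Il4ra (chr7:125552120-125579474, plus strand), the interleukin-4 receptor chain, stood at 46.2, 26.2, 49.3 and 51.6 TPM in replicates 1 to 4. Replicate 2 was far below the others, which lay close together. The mean of 43.3 ± 11.6 TPM was above 10 TPM (limma, adjusted p = 4.28e-06). Il2rg, the common gamma chain with which IL-4RA forms the type I receptor, was higher in each library, with a log2 difference of -1.67 ± 0.29 for Il4ra against it. Il13ra1, the partner in the type II receptor that also binds interleukin-13, was far lower at 1.71 ± 0.308 TPM. Il4ra exceeded it by 5.11, 4.00, 4.78 and 4.63 on the log2 scale in replicates 1 to 4, a mean of 4.63 ± 0.46 or 24.8-fold. Il4ra thus stood below Il2rg and above Il13ra1 in 4 of 4 libraries (exact sign-flip permutation p = 0.125, adjusted p = 0.125). Of the 8 other genes listed for this system, 4 lay above 1 TPM and 2 above 10 TPM. Over protein-coding genes tested, the shares were 71.2% and 27%. Stat6, the transducer of interleukin-4, stood at 37.6 ± 6.75 TPM and the kinase gene Jak3 at 7.06 ± 1.18 TPM. The cytokine gene Il13 and the decoy receptor gene Il13ra2 had no count, which allows up to 0.0602 and 0.0349 TPM, and Il4 stood at 0.185 ± 0.168 TPM.

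The reads of Il4ra were divided between a full-length coding transcript and one that ends early. Il4ra-201, with 810 codons, and Il4ra-205, annotated as subject to nonsense-mediated decay and with 230 codons, share exon 7 (chr7:125571434-125571590). Il4ra-205 then enters an exon of 114 bases (chr7:125571934-125572047) that Il4ra-201 skips, and meets a stop codon in it at chr7:125571951-125571953. The sequences below, from the GENCODE M21 transcripts on mm10, show where the reading frames part: 40 shared bases of exon 7 in lower case (chr7:125571551-125571590), then in capitals the next 20 bases of each transcript, those of Il4ra-205 ending in the stop TGA.
Il4ra-201: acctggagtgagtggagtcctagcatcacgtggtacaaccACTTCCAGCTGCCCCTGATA
Il4ra-205: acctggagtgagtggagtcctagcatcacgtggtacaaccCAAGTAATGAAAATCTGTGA
Mouse cells are known to make a secreted interleukin-4 receptor from an alternatively spliced Il4ra mRNA, and whether Il4ra-205 was translated here was not tested.

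Il4ra-205 held 53.6%, 43.4%, 53.6% and 53.1% of the TPM of Il4ra in replicates 1 to 4. Il4ra-201 held 45.3%, 53.7%, 45.2% and 46.1%. In this first quantification Il4ra-205 thus led in 3 of the 4 libraries, and replicate 2 stood apart in both transcripts. In replicate 2 the level of Il4ra-205 was 11.4 TPM against 24.7 to 27.4 in the others, and that of Il4ra-201 was 14.1 against 20.9 to 23.8. The second deposited quantification, made directly from the reads, gave Il4ra-205 77.4%, 72.9%, 77.9% and 78.5%. Its mean share was therefore 50.9% ± 5.01 in the first quantification and 76.7% ± 2.56 in the second, and replicate 2 was lowest in each. In the second, Il4ra-201 held 20.0%, 20.2%, 19.9% and 19.1%, and replicate 2 did not stand apart in it. By mean TPM over the 4 libraries, a transcript of the nonsense-mediated-decay type led in 1.63% (first quantification), 1.93% (second) and 1.3% (both) of the 3938 protein-coding genes of at least 10 TPM that have more than 1 transcript. Of the 7 genes here it led in Il4ra alone. The transcript models also differ at their ends: Il4ra-201 has 167 more bases at the 5′ end and 1507 more at the 3′ end (chr7:125577968-125579474). Whether the shares reflect the exon or coverage of the ends cannot be told apart in these tables. The antisense gene Gm44876 (chr7:125570776-125572117), which overlaps the exon, had 3.64 counts in replicate 3 and 0 in the others in the first quantification. In the second it had 0, 18.6, 7.49 and 2.91 counts, highest in replicate 2, and its part in the shares was not tested.

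**Figure D2:**
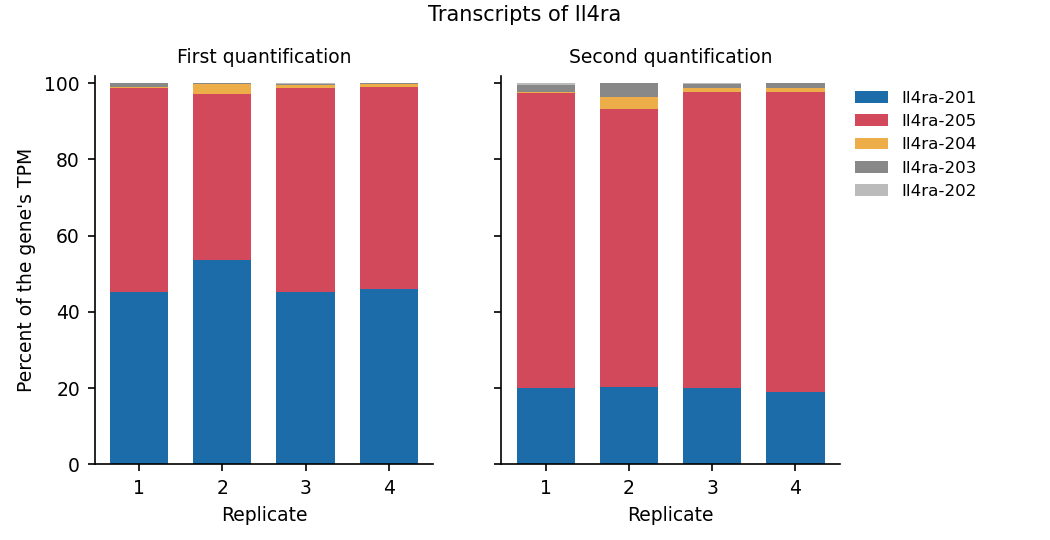
Share of the TPM of Il4ra (percent, stacked to the whole gene) held by each annotated transcript in the 4 libraries, in the first quantification at the left and the second at the right. Il4ra-205 holds 43.4% to 53.6% in the first and 72.9% to 78.5% in the second.

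Among the effectors, Etv3 was highest, Sbno2 intermediate and Nfil3 lowest in each of the 4 libraries. Etv3 (chr3:87525407-87540156, plus strand) stood at 30.5, 37.0, 36.7 and 57.2 TPM in replicates 1 to 4, a mean of 40.3 ± 11.6. Replicate 4 was well above the other 3 in deposited TPM of the first quantification. Rescaled to protein-coding genes, the levels were 96.5, 148, 124 and 157 TPM, with replicate 1 lowest and replicate 4 near replicate 2. Sbno2 (chr10:80056992-80105571, minus strand) stood at 13.9, 11.3, 14.5 and 19.2 TPM, a mean of 14.7 ± 3.31. Both lay above 10 TPM (limma, adjusted p = 3.09e-06 for Etv3 and 0.0123 for Sbno2), Sbno2 with the least margin of the 5. In the second quantification as deposited, where all 7 genes had lower levels, the mean of Sbno2 was 5.34 TPM, on the other side of 10. The log2 ratio of Sbno2 to Etv3 was -1.44 ± 0.25, a 2.71-fold lower level, below 0 in 4 of 4 libraries.

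Nfil3 (chr13:52967209-52981073, minus strand) was the scarcest and the least reproducible of the 7. In replicates 1 to 4 it stood at 1.21, 2.75, 2.67 and 4.23 TPM, from 111, 351, 380 and 447 expected counts. Replicate 1 was lowest, replicate 4 highest, and replicates 2 and 3 lay close together between them. The mean lay above 1 TPM (limma, adjusted p = 0.000664) and below 10 TPM (adjusted p = 1.95e-05). In the second quantification as deposited its mean was 0.900 TPM, on the other side of 1 TPM, with no call against 1 TPM. Rescaled to protein-coding genes, Nfil3 stood at 3.83, 11.0, 9.00 and 11.6 TPM, so replicate 1 stayed lowest and the mean of 8.86 ± 3.53 TPM was no longer called below 10. Against Etv3 in the same library, the log2 ratio of Nfil3 was -4.65 in replicate 1 and -3.75, -3.78 and -3.76 in replicates 2 to 4. The last 3 libraries were nearly alike in this difference and replicate 1 stood apart. The mean difference was -3.99 ± 0.45, and -3.76 without replicate 1. Cd4 was also lowest in replicate 1, at 8.46 TPM against 16.6 to 18.0 in the others, while Cd3e was highest there at 0.15 TPM, and the part of other cell types in the level of Nfil3 was not tested.

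The effectors had relatives in the same cells. Sbno1, the paralog of Sbno2, was the highest of 7 relatives and partners listed, at 18.8 ± 2.70 TPM. The log2 ratio of Sbno2 to it was -0.43, -0.42, -0.44 and -0.16 in replicates 1 to 4, a mean of -0.36 ± 0.13, and -0.61 ± 0.17 in the second quantification (exact sign-flip permutation p = 0.125, adjusted p = 0.125 over 7 contrasts). Replicate 4 was closest to equal levels. Etv6, another ETS-family repressor, stood at 13.5 ± 3.34 TPM, and Dbp, a basic leucine zipper factor that binds sites like those of NFIL3 and activates, stood at 9.89 ± 3.45 TPM. Of the 7 listed, 6 were tested and lay above 1 TPM, and Sbno1 alone lay above 10 TPM. Over protein-coding genes tested, the shares were 71.2% and 27%.

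The leading transcripts of Etv3 shared a coding sequence, and those of Sbno2 were of several kinds. Etv3-205 held 80.8% ± 1.88 of the TPM of Etv3 and Etv3-202, with the same coding sequence of 513 codons, held 14.7% ± 1.69. Sbno2-209, of 1349 codons, held 55.6% ± 1.87 of the TPM of Sbno2. Sbno2-207, which starts further downstream and whose coding end is incomplete in the annotation, held 29.0%, 18.2%, 24.2% and 25.5% in replicates 1 to 4, lowest in replicate 2. Sbno2-203, annotated as retaining an intron, held 16.9%, 9.28%, 15.2% and 13.6%, also lowest in replicate 2. The second quantification gave Sbno2-209 45.4% ± 1.28, Sbno2-207 30.1% ± 4.54 and Sbno2-203 17.4% ± 3.01. Nfil3 has 1 annotated transcript.

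The start of Sbno2-207 lies just below a match to the symmetrical STAT-type motif. RefSeq promoters on GRCm38.p6, each 250 bases before to 50 after a start, were given for 4 of the 7 genes (6 promoters, 3 of them of Sbno2). They were searched on both strands for 8 motifs, chosen after earlier results were known, and a match is a description and not a site. The 3 Sbno2 promoters do not reach the start of its leading transcript, Sbno2-209 (chr10:80104370). The bases before that start were not searched. TTCNNNGAA was found in 2 Sbno2 promoters, against 8.30% of all 32851 promoters, and the overlapping, stricter TTCCNGGAA in 1 of these, against 1.15%. The 60 bases before the start of Sbno2-207 (chr10:80101188-80101247, minus strand) are shown, with the match at -24 to -16 from the start in capitals.
Sbno2-207: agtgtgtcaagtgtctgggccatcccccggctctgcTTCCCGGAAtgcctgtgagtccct
TGACG was found in the promoters of Etv3 and Nfil3 (20.8% of all promoters), a loose kappaB-type motif in that of Il4ra (5.56%) and CCGGAA in 2 of Sbno2 (14.9%), 1 of them within the match shown. TGACGTCA, TTACGTAA and an interferon-response-type motif were found in none of the 6, which says only that these letters are not in these windows.

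In the 3′ untranslated regions the 7 genes differed. ATTTA occurred 7 times in Etv3-205, 4 times in Il10rb-201, 3 times in Il10ra-201, once in Sbno2-209 and not at all in Nfil3-201 and Il4ra-201. Per kb, Il10rb-201 followed Il10 at 5.63. The longer TTATTTATT occurred once in Etv3-205 and 3 times in Il10ra-201, thus in 2 of the 7 genes, against 6.75% of 9338 genes. Il10 did not carry it. The regions of Etv3-205 and Il10ra-201 have 3490 and 1693 bases, against a median of 919 over the 9338 genes. The comparison was not adjusted for length.

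The order of the levels was fixed at its ends and loose in its middle. In each library Il10rb came first, and Sbno2, Il10 and Nfil3 held the last 3 places in that order. Il4ra, Etv3 and Il10ra changed places from library to library. Il4ra exceeded Etv3 in 2 of 4 libraries (mean log2 difference 0.09 ± 0.51) and Etv3 exceeded Il10ra in 3 of 4 (0.13 ± 0.21), so neither neighbouring pair differed beyond its spread. The steps from Il10rb to Il4ra (1.35 ± 0.29), from Il10ra to Sbno2 (1.31 ± 0.16), from Sbno2 to Il10 (0.85 ± 0.28) and from Il10 to Nfil3 (1.70 ± 0.91) had 1 direction in 4 of 4 libraries.

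How the 7 genes varied between libraries depended on the scale. On both scales of the first quantification, Nfil3 was lowest in replicate 1 and Il4ra and Il10 lowest in replicate 2. In deposited TPM of the first quantification, each of the 7 was highest in replicate 4. In deposited TPM of the second, Il10, Il10rb, Sbno2 and Il4ra were highest in replicate 1, and Il10ra, Etv3 and Nfil3 in replicate 4. On rescaled values of the first, Il10rb and Il4ra were highest in replicate 3. After rescaling to protein-coding genes, the coefficient of variation was 7.02% in place of 18.2% for Il10rb and 8.30% in place of 22.4% for Sbno2, which were then nearly level over the libraries. That of Nfil3 was 45.4% as deposited and 39.9% rescaled. On rescaled values, the log2 deviation from the gene's own mean in replicate 2 was -0.39 for Il4ra and -0.38 for Il10, but 0.20 for Etv3 and 0.43 for Nfil3. In replicate 1 it was -1.07 for Nfil3 and -0.42 for Etv3, but 0.21 for Il10. The biological coefficient of variation (edgeR, TMM, on rounded expected counts) ran from 13.3% for Sbno2 and 13.6% for Il10rb through 17.1% for Il10ra, 18.1% for Etv3, 18.8% for Il4ra and 21.1% for Il10 to 32.9% for Nfil3. The median of the 7 was 18.1%, against 15.8% over the 10989 genes whose mean count reached 50, and Nfil3 stood at percentile 92.7 of those.

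**Figure D3:**
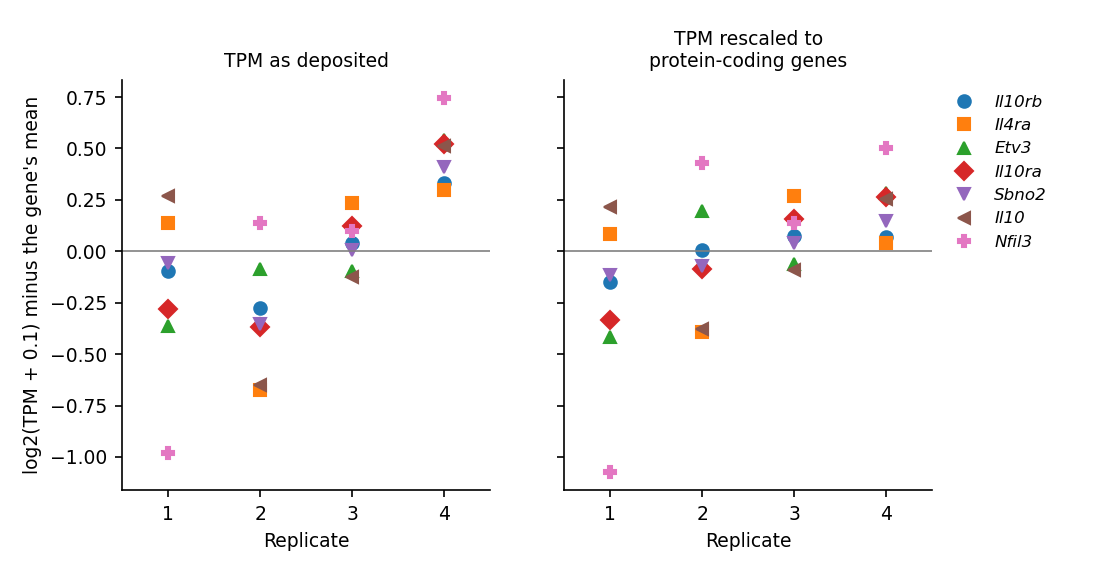
Deviation of each gene from its own mean over the 4 libraries (log2(TPM + 0.1)), in deposited TPM at the left and in TPM rescaled to protein-coding genes at the right. Values are from the first quantification. Nfil3 in replicate 1 (-0.98 and -1.07) is the lowest point on both scales, and Il4ra and Il10 are lowest of the 7 in replicate 2.

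The genes whose levels followed those of Il10 most closely over the 4 libraries were Il1rn, Nr1h3 and B430306N03Rik. The measure was the root mean square difference of log2(TPM + 0.1) centred on each gene's mean, over 6227 protein-coding genes of at least 5 TPM, and these points share library and depth. It was 0.029 for Il1rn, the interleukin-1 receptor antagonist, 0.032 for Nr1h3, the liver X receptor alpha, and 0.033 for B430306N03Rik, against a median of 0.307. Il1rn stood at 67.6, 33.7, 49.6 and 77.1 TPM, with the same order of libraries as Il10. Of the other genes of the axis, Il4ra came nearest at rank 762, then Sbno2 at 1086, Il10rb at 2498, Il10ra at 3867 and Etv3 at 5504. Nfil3, at a mean under 5 TPM, was outside this set of genes, and 4 points allow no test.

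The shares of retained-intron transcripts differed between libraries, as did the levels of nuclear noncoding RNA. Such transcripts held 1.08%, 5.87%, 2.72% and 2.96% of the TPM of Etv3 in replicates 1 to 4. For Il4ra the shares were 0.217%, 2.67%, 0.650% and 0.717%, and for Il10rb 0.120%, 0.851%, 0.328% and 0.365%. In all of these replicate 1 was lowest and replicate 2 highest. The share of Sbno2 was level at 17.5%, 17.1%, 16.7% and 16.7%, with Sbno2-203 lowest in replicate 2 and Sbno2-202, Sbno2-205 and Sbno2-206 highest there. Of the 8 retained-intron transcripts of these 4 genes, 7 had their highest share in replicate 2 in each quantification. Counted by gene in the first quantification, 76.8% of 2725 protein-coding genes had their highest summed share in replicate 2. These were genes of at least 10 TPM with such a transcript above 0. By that count Etv3, Il4ra and Il10rb were highest in replicate 2 and Sbno2 in replicate 1. The nuclear RNA Malat1 stood at 55.7, 719, 416 and 295 TPM and Neat1 at 9.62, 41.2, 31.7 and 21.1 TPM. Both were higher in replicate 3 than in replicate 4, unlike the shares of Etv3, Il4ra and Il10rb. Both were also lowest in replicate 1 and highest in replicate 2. Nfil3 was likewise lowest in replicate 1, as were Il10rb, Il10ra, Sbno2 and Etv3 on rescaled values, and Il10 and Il4ra were lowest in replicate 2. The part of nuclear RNA in these differences was not tested.

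**Figure D4:**
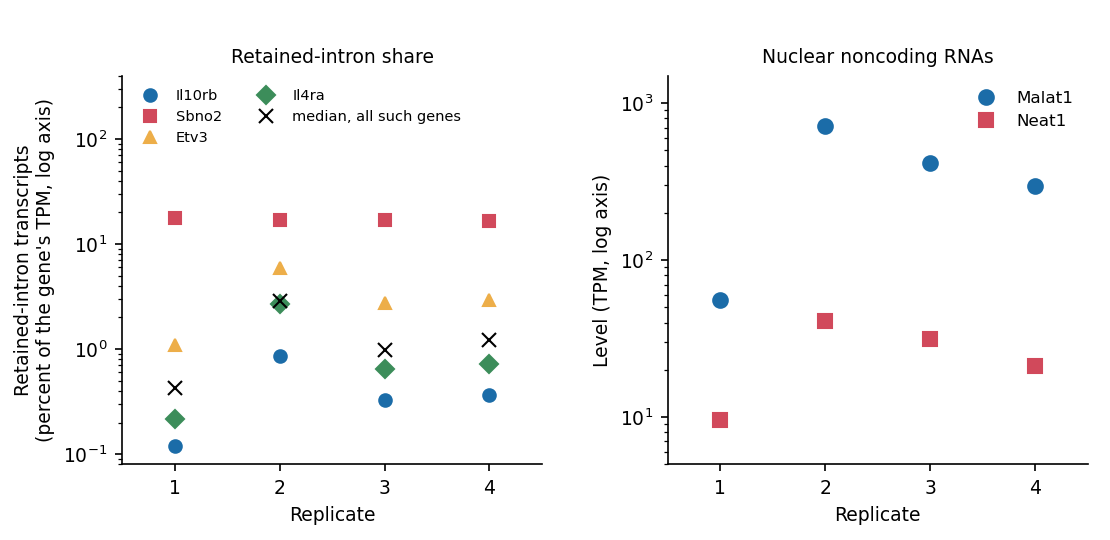
At the left, share of each gene's TPM in retained-intron transcripts (percent, log axis) for the 4 genes that have them, with the median over all such genes as crosses. At the right, Malat1 and Neat1 (TPM, log axis). The shares of Etv3, Il4ra and Il10rb and both nuclear RNAs are lowest in replicate 1 and highest in replicate 2, and that of Sbno2 stays between 16.7% and 17.5%.

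The 7 genes kept their relative levels between the quantifications. On average over the libraries, the first gave higher TPM than the second by 1.37 to 1.53 on the log2 scale. The median of all 10329 genes compared was 1.40. The offset was not the same in each library. The factors for rescaling to protein-coding genes in replicates 1 to 4 were 3.17, 4.00, 3.37 and 2.74 in the first and 7.19, 9.07, 11.4 and 9.17 in the second. By limma treat against a log2 difference of 1, 0 of 7 were called after Benjamini-Hochberg adjustment (adjusted p from 0.101 to 0.125), 6 at an unadjusted p below 0.05, beside 4.28% of all genes called higher in the first and 2.22% in the second. With both rescaled to protein-coding genes, their differences lay between -0.09 and 0.07, with 0 of 7 called beside 0.948% of all genes higher in the first and 3.33% higher in the second (adjusted p = 1, and 0 at an unadjusted p below 0.05). In deposited TPM the SE of the difference was 0.258 for each of the 7, and rescaled differences this small cannot pass a limit of 1. Neither count of calls therefore bears on the relative levels, which rest on the sizes of the differences.

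Genes that control Il10 were largely present. Of 25 listed for its transcription and mRNA, 23 lay above 1 TPM and 12 above 10 TPM. Over protein-coding genes tested, the shares were 71.2% and 27%. Maf, the transcription factor on which macrophage Il10 depends in large part, was highest at 86.6 ± 12.8 TPM, followed by Irf5 at 73.1 ± 20.0 TPM and Zfp36, which encodes tristetraprolin, at 60.3 ± 8.59 TPM. The kinase gene Rps6ka5, named after its values were seen, lay below 1 TPM at 0.603 ± 0.0532 TPM.

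The other genes that interleukin-10 is known to raise in macrophages were not uniformly high. Of 12 listed, 10 lay above 1 TPM and 8 above 10 TPM, beside 71.2% and 27% of protein-coding genes tested. The high-affinity Fc receptor gene Fcgr1 stood at 270 ± 86.9 TPM, the scavenger receptor gene Marco at 147 ± 104 and the haem oxygenase gene Hmox1 at 138 ± 54.8 TPM. Marco ranged from 43.9 TPM in replicate 2 to 274 in replicate 1. Cd163 at 0.0700 ± 0.0408 and Ddit4 at 0.510 ± 0.0779 TPM lay below 1 TPM, both named after their values were seen.

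Of 7 cytokine genes that interleukin-10 restrains, 4 lay above 1 TPM and 3 above 10 TPM, beside 71.2% and 27% of protein-coding genes tested. Tnf stood at 82.7 ± 35.2 TPM, Il1b at 20.7 ± 9.57 and Il1a at 18.2 ± 4.70 TPM, each above Il10 in mean level. Il12b, the target that NFIL3 represses, stood at 3.87, 0.99, 2.95 and 0.90 TPM in replicates 1 to 4, highest in replicate 1, where Nfil3 was lowest. Replicates 2 and 3, with near-equal Nfil3, also differed in Il12b, and 4 libraries allow no test of a relation. Il12b was named after its values were seen.

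**Figure D5:**
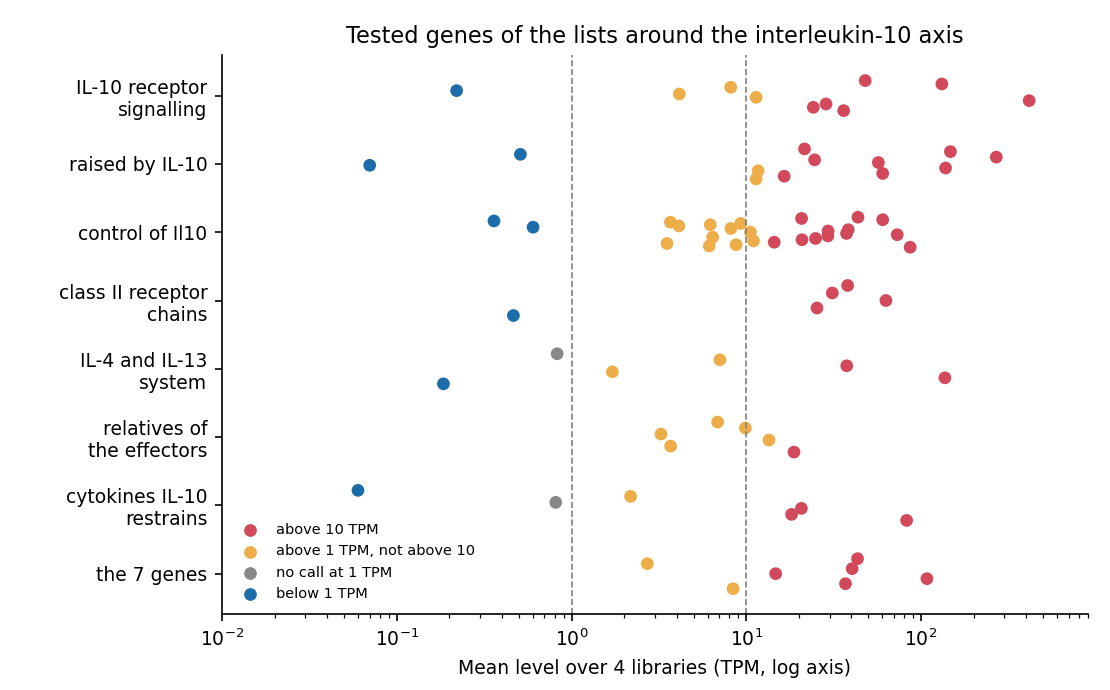
Mean level over 4 libraries (TPM, log axis) of the tested genes in each list and of the 7 genes, coloured by the limma calls against 1 and 10 TPM (dashed lines). The 7 genes lie between 2.72 and 108 TPM, and the ligand family has no row because none of its other 6 members was tested.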

How the data were processed

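Per the file headers, the authors deposited for each library a gene table and a transcript table of expected counts, TPM and posterior mean TPM (the first quantification), and a second transcript table of estimated counts and TPM. The posterior SD of a count in the deposited tables is another value, in counts. Per the deposited notes of each library, mm10 and GENCODE M21 were used, the first quantification used alignments to the transcriptome, and the second used the read files themselves. The sources used here do not name the tools. All 55536 annotated genes matched GENCODE M21.

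Levels were tested with limma 3.58.1 (intercept only, eBayes with a trend) on log2(TPM + 0.1), for genes whose expected counts sum to 10 or more, one-sided against 1 and 10 TPM in each direction. Quantifications were compared with limma treat, the spread with edgeR 4.0.16 on expected counts rounded to whole numbers, and DESeq2 1.42.0 served as an alternative. Contrasts were log2 ratios within a library. The scripts ran in R 4.3.3 and Python 3.11.15, and the fits were tested on simulated data. Pairs of libraries differed beyond sampling noise (chi-square per degree of freedom from 106 to 167), so they were kept as 4 samples.

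The members, lists, motifs and the 10 TPM level were chosen with earlier results of these data known. Named were the 7 genes, the genes of the contrasts, the 3 highest of each list and the 3 genes nearest Il10; other list genes, markers among them, were named after their values were seen. A few list genes are counted but not reported here by name. Limits for 0 counts are 3 counts.

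The alternatives tried were another pseudocount, other count filters, rescaling to protein-coding genes, TMM factors, posterior mean TPM, the second quantification, no variance trend and leaving out each library. TPM was divided by the TMM factors, although the plan said multiplied. The fit without a filter could not be made over genes with no count, so it used all genes with any count.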

Additional observations from a re-analysis of the deposited data

Results flagged for a closer look

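In 5 of the 35 sets of 4 library values examined, the highest or lowest library lay far from the other 3, by Dixon's limit at 95% for a gap over the range. Chance alone flags about 1 in 20 such sets. The log2 ratio of Nfil3 to Etv3 was -4.65 in replicate 1, below the other 3. That of Sbno2 to Sbno1 was -0.16 in replicate 4, above the other 3. In replicate 2 of the first quantification, Il4ra-201 held 53.7% and Il4ra-205 43.4% of the TPM of Il4ra. These shares mirror each other and count as 1 departure. In the second quantification, Il4ra-201 held 20.2% in replicate 2, against 19.1% to 20.0% in the others. Il10ra-201 held 97.2% of the TPM of Il10ra in replicate 3, a departure of under 1 percentage point. Replicate 2 also had the highest Malat1 (719 TPM) and replicate 1 the lowest (55.7 TPM), and the part of nuclear RNA in these values was not tested.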

How the results depend on the processing

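Against 1 TPM, 90 of 91 calls of the 7 genes under an alternative were as reported, and against 10 TPM 82 of 91. The exceptions came from scaling, apart from Il10 without replicate 4, when it was called below 10 TPM at 7.37 TPM. The second quantification as deposited called 2 of the 7 above and 3 below 10 TPM. The 3 were Nfil3 at 0.900, Sbno2 at 5.34 and Il10 at 2.90 TPM, and Nfil3 had no call against 1 TPM. Il10ra (12.4) and Etv3 (13.9) were no longer called above 10 TPM. Rescaled to protein-coding genes, 0 of the 7 lay below 10 TPM, beside 7887 of the 16262 genes tested in the first quantification. Il10 then lay above 10 TPM, at 26.8 TPM in the first and 25.7 in the second quantification. Nfil3 at 8.86 and 8.41 TPM had no call. Leaving out a library gave 1 to 2 members below 10 TPM. Over all genes, the number below 1 TPM was 5712, and 12003 with all genes of any count, 2800 with summed counts of at least 40, 3427 rescaled and 12231 in the second quantification. The number above 10 TPM was 3529, and 7277 rescaled, 1250 in the second quantification and 7320 in that rescaled. The number below 10 TPM was 11344, and 17814 with all genes of any count, 7887 rescaled, 19238 in the second quantification and 12688 in that rescaled. With a pseudocount of 1, 3 of the 7 differed between quantifications. Sbno2 against Sbno1 was -0.61 in the second quantification, and Il4ra-205 held 76.7%. All 7 contrasts kept their direction without any 1 library. No paired analysis was possible because all 4 libraries form 1 group. Nfil3 (111 to 447) and Il10 (391 to 738) had the lowest expected counts of the 7, with counting errors of at most 9.49% and 5.06%, below their coefficients of variation between libraries (45.4% and 33.2%).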
